A study of Gallus gallus with 88 samples.

Results

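The mitochondrial ribosome is the protein-synthesis machine inside mitochondria, and its protein parts are named MRPL for the large subunit and MRPS for the small one. The genes of these proteins lie in the nucleus, and the proteins are made in the cytosol, imported and assembled on ribosomal RNA that is encoded by mitochondrial DNA. The finished ribosome makes the few respiratory chain and ATP synthase subunits that mitochondrial DNA encodes, which in muscle feed the ATP supply for contraction. The measurements below cover the chicken genes of this family in breast muscle. Members were probe sets with exactly 1 gene symbol that begins with MRPL or MRPS and a digit. Where a gene had more than 1 probe set, the one with the highest mean stands for it. This gave 58 genes on 62 probe sets, 35 of them MRPL and 23 MRPS, of 11528 genes with a name of their own on the array. A further 15 of the 73 such symbols in the RefSeq gene table were not analysed here, and MRPL12 shares its probe set with the carrier gene SLC25A10 and is not counted.

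Messenger RNA was measured in the Musculus pectoralis major of broiler chickens on 88 Affymetrix arrays, 1 array per animal by the series design, so the spread between arrays is that between animals. Broiler eggs were held at 38.8 °C or 36.8 °C during one interval of incubation and otherwise at 37.8 °C, the temperature at which control eggs stayed throughout. The embryo set holds 48 arrays. For embryonic day 10 (ED10, treatment on days 7 to 10) there were 8 arrays at 38.8 °C, 8 at 36.8 °C and 8 at 37.8 °C, and likewise for embryonic day 13 (ED13, treatment on days 10 to 13). The set of post-hatch day 35 (D35) holds 40 arrays, with 8 for each of 38.8 °C and 36.8 °C in the early interval (days 7 to 10), 8 for each in the late interval (days 10 to 13), and 8 controls at 37.8 °C. Of those controls, 2 are labelled for the early interval and 6 for the late one, and all were kept at 37.8 °C. Post-hatch birds lived in a barn on a standard diet without restriction.

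All values are log2 signals as deposited, and a difference is a difference of log2 means. The median signal of an array lay between 7.56 and 8.13 in the embryo set and between 6.32 and 6.76 at D35, so the sets were fitted apart and no log2 level is set across them. None of the 58 genes had a value of 0 on any array. Tissue content was described with marker lists. None of the markers was at 0 on any array, those of other tissues included, so this does not identify the tissue. On ED10 arrays the mean level of 7 muscle genes lay between 10.10 and 10.95. It lay between 11.48 and 11.88 on ED13 arrays. On D35 arrays it lay between 11.23 and 12.07, which is not to be compared with the embryo values. Over ED10 arrays the mean level of cartilage genes ranged from 5.18 to 10.17 and that of skin genes from 5.83 to 9.73. The part of this range in the ED10 comparisons was not tested. At every age the sample list puts 4 controls next to the 38.8 °C arrays and the other 4 next to the 36.8 °C arrays. What these 2 listing blocks stand for is not stated. Among controls alone the second block differed from the first at 8.13% of probe sets on ED10, 0.884% on ED13 and 0.164% at D35, with no family member called in limma at any age, but 48 of 58 members were lower in the second block on ED13 and 47 at D35. The median difference over members was -0.13 on ED13 and -0.16 at D35, against -0.12 and 0.03 over all probe sets. On ED13 the block difference of the family was thus near that of all probe sets. Results against control are therefore also given within blocks where that changes them. In RNA of whole tissue, fewer cells of a type and less RNA per cell cannot be told apart.

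Within an array, most of the family gave signals above the median of all probe sets. A percentile rank counts from the dimmest to the brightest probe set of an array. It places a probe set and does not compare amounts of different genes, since probe sets differ in how strongly they bind. The median member stood at percentile 68.9 on embryo arrays and at 74.3 on D35 arrays, and 53 of 58 members stood above the median in each set. MRPL3, the counterpart of a bacterial protein that reaches toward the peptidyl transferase centre, stood highest in both sets, at a median percentile of 98.3 in embryos and 95.9 at D35. Next came MRPS34 at 96.6 in embryos and 94.2 at D35, and MRPS2 at 92.9 in embryos and 94.0 at D35. MRPL35 stood lowest in both sets, at 28.9 in embryos and 33.9 at D35. MRPS12, the small-subunit protein of the decoding centre, stood at 33.2 in embryos and 45.9 at D35, and MRPL17 at 34.8 in embryos and 40.4 at D35. MRPS18A, counted today among large-subunit proteins despite its name, stood at 91.3 at D35 and close to that in embryos.

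Many members stood higher among the probe sets of grown muscle than among those of embryonic muscle. Between D35 and ED13 controls, the percentile of the same probe set moved up for 41 members and down for 17, with a median shift of 4.76 points, against 0.367 points over all probe sets. The 8 D35 values lay wholly above the 8 ED13 values for 18 members, or 31.03%, against 16.7% of all probe sets and 20.4% of the 11528 named genes. They lay wholly below for 3 members, or 5.17%, against 17.4% of all probe sets and 22.2% of named genes. The embryo and D35 tables may have been normalized apart, so these ranks are a description with no test.

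MRPS14, a small-subunit protein with a bacterial counterpart, had the largest shift up: its percentile was 81.2 to 86.1 (median 83.8) in D35 controls and 54.9 to 59.6 (median 58.2) in ED13 controls. MRPL57, a large-subunit protein that bacteria lack, stood at 85.6 to 89.9 (median 88.3) in D35 controls and 60.7 to 65.2 (median 64.3) in ED13 controls. Neither pair of ranges met. MRPL2, a core large-subunit protein next to the peptidyl transferase centre, had a median of 83.6 in D35 controls and 61.5 in ED13 controls. MRPS11 and MRPL18, proteins of the small and the large subunit with bacterial counterparts, had medians of 74.4 and 72.8 in D35 controls and of 52.9 and 53.3 in ED13 controls. These 3 members did not overlap between the ages either.

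The members that moved down without overlap were MRPL19, MRPL3 and MRPS34. MRPL19 stood at 70.8 to 78.5 (median 74.2) in D35 controls and 80.1 to 83.04 (median 81.8) in ED13 controls. MRPL3 stood at 94.7 to 96.7 in D35 controls and 97.7 to 98.2 in ED13 controls, which is near the top of the array at both ages. Among 53 nuclear genes of respiratory chain and ATP synthase subunits, 49 moved up with a median shift of 4.97 points, and 29 did so without overlap. Among 53 proteins of the cytosolic ribosome, 7 moved up and 46 down, with a median shift of -1.01 points. The part of other cell types in the shift of the family was not tested.

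**Figure D1:**
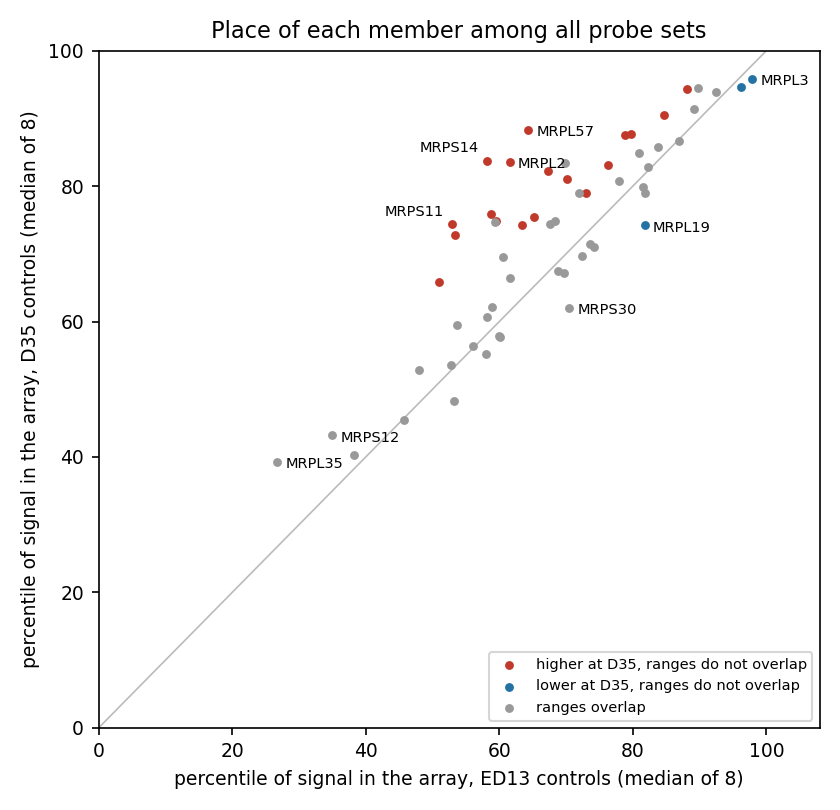
Percentile of signal within the array for each of the 58 members, D35 controls on the vertical axis against ED13 controls on the horizontal axis, each point being the median of 8 arrays and the line marking equal places. The 18 members higher at D35 without overlap (red), such as MRPS14 and MRPL57, lie above the line, and the 3 lower ones (blue), such as MRPL19, lie below it.

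From ED10 to ED13 the family lay slightly lower, with a minority of members past the test. At 37.8 °C, 17 members (29.3%) had an unadjusted p under 0.05, all of them lower, against 36.2% of all probe sets. After adjustment 11 of 58 members fell and 0 rose. That is 18.97% of members, against 26.8% of all probe sets called in either direction, of which 17.2% were lower and 9.65% higher, so the share of members that fell is near that of all probe sets. The members' differences had a median of -0.12, against -0.02 over all probe sets, and 18 of the 58 were positive.

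MRPL3 had a lowest, median and highest log2 signal of 11.88, 11.93 and 11.97 in ED13 embryos and 12.12, 12.23 and 12.42 in ED10 embryos. Its difference was -0.31 (SE 0.05, adjusted p = 4.56e-06), and the 2 ages did not overlap. MRPL51, a large-subunit protein that bacteria lack, had 9.51, 9.79 and 10.00 in ED13 embryos and 10.04, 10.18 and 10.31 in ED10 embryos, a difference of -0.37 (SE 0.08, adjusted p = 0.000208). All ED13 embryos lay below all ED10 embryos for these 2 members, a pattern that 4.49% of all probe sets showed (3.3% the other way).

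MRPL24, the counterpart of a bacterial protein that starts large-subunit assembly, had 9.32, 9.64 and 9.79 in ED13 embryos and 9.71, 9.96 and 10.14 in ED10 embryos, a difference of -0.35 (SE 0.08, adjusted p = 0.000505). MRPL57 had 8.27, 8.66 and 8.79 in ED13 embryos and 8.61, 8.97 and 9.18 in ED10 embryos, a difference of -0.33 (SE 0.09, adjusted p = 0.0046). MRPS34, a small-subunit protein that bacteria lack, had 11.23, 11.38 and 11.59 in ED13 embryos and 11.42, 11.57 and 11.69 in ED10 embryos, a difference of -0.18 (SE 0.05, adjusted p = 0.00877). The ages overlapped at the edges for these 3 members, with all 8 ED13 embryos below the ED10 mean for MRPL24 and MRPL57 and 7 of 8 for MRPS34.

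The other 6 members that fell were MRPL19 (-0.25), MRPL23 (-0.22), MRPL28 (-0.31), MRPL45 (-0.30), MRPS7 (-0.20) and MRPS18A (-0.15), with adjusted p between 0.0113 and 0.0423. MRPL23 lies at the exit of the tunnel through which the new chain leaves, and MRPL45 ties the ribosome to the inner membrane at that exit. MRPS7 is a small-subunit core protein. By class, 6 of 21 large-subunit proteins with a bacterial counterpart fell, 3 of 16 large-subunit proteins without one, 1 of 11 small-subunit proteins with a counterpart and 1 of 9 without. The second probe set of MRPL45 fell as well (-0.35, adjusted p = 0.0176). That of MRPL28 had a difference of -0.12 with an adjusted p of 0.408.

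Embryos treated during the days before sampling were compared in the same way, and the ages compared there are different animals treated in different intervals. At 38.8 °C, 12 members fell and 0 rose, against 22.8% of all probe sets called, 14.4% lower and 8.4% higher. The median over members was -0.13, against -0.04 over all probe sets. MRPL57 was lowest relative to ED10 (-0.44, SE 0.09), with MRPL35 at -0.40 and MRPL24 at -0.39 (SE 0.08). The second probe sets of MRPL35 (-0.34) and MRPL45 (-0.30) were not called at 38.8 °C, at adjusted p of 0.194 and 0.0571. Small-subunit proteins made up 5 of the 12, namely MRPS16 (-0.26), MRPS23 (-0.22), MRPS25 (-0.24), MRPS26 (-0.27) and MRPS34 (-0.24). The second probe set of MRPS26 lay the other way at 38.8 °C, with a difference of 0.23 and an adjusted p of 0.153, so the direction of that gene depends on the probe set. No member had ages without overlap at 38.8 °C, where 3.75% of all probe sets were wholly lower and 3.59% wholly higher on ED13.

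At 36.8 °C, 4 members fell and 1 rose, against 26.4% of all probe sets, 12.1% lower and 14.4% higher. The count was 13 members after quantile normalization, against 30.6% of all probe sets under that setting, 16.2% lower and 14.3% higher. It was 2 without array 57, 76 or 83. Those that fell were MRPL24 (-0.35, adjusted p = 0.000676), MRPL51 (-0.26), MRPL57 (-0.24) and MRPL3 (-0.14). MRPL15, the counterpart of a bacterial large-subunit protein, rose: it had a lowest, median and highest signal of 9.46, 9.53 and 9.75 in ED13 embryos and 8.48, 9.38 and 9.63 in ED10 embryos, a difference of 0.29 (SE 0.11, adjusted p = 0.0428). The ranges overlapped, as they did for every member at 36.8 °C, where 2.98% of all probe sets were wholly lower and 4.09% wholly higher on ED13.

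MRPL3, MRPL24, MRPL51 and MRPL57 fell at all 3 temperatures. The 7 members that fell at both 38.8 °C and 37.8 °C were these 4 with MRPL19, MRPL45 and MRPS34. At 36.8 °C, MRPL3 was not called with only the groups compared in the fit (adjusted p = 0.134), nor MRPL57 there or with the block and the hybridisation control bioB as terms. The test of the difference between temperatures, an interaction term in the fit, called 0 members and 0% of all probe sets for either treatment. Only MRPL3 had an unadjusted p under 0.05 there, against 2.95% of all probe sets for 36.8 °C and 3.88% for 38.8 °C. Its interaction was 0.17 (SE 0.07, adjusted p = 0.969) for 36.8 °C against 37.8 °C. The median interaction over members was 0.08 for 36.8 °C, against 0.07 over all probe sets, and -0.02 for 38.8 °C. Under quantile normalization the median for 36.8 °C was -0.002. Without 1 embryo of ED10 at 37.8 °C (array 63) 17 members were called at that temperature, and without 1 ED13 embryo (array 25) the 38.8 °C count was 7.

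**Figure D2:**
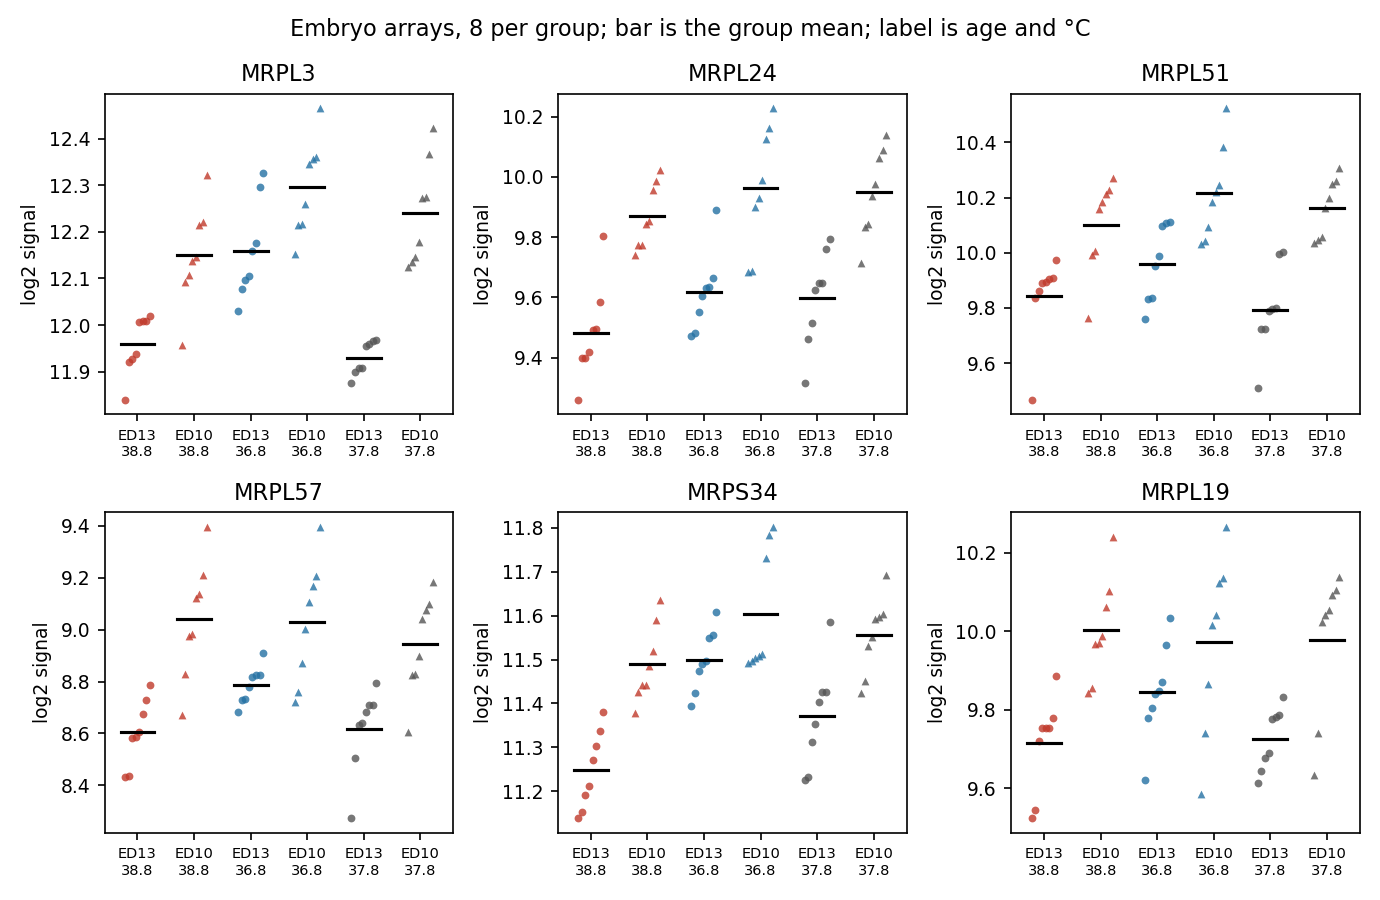
Log2 signal of 6 members in the embryo, with ED13 (circles) left of ED10 (triangles) at 38.8 °C, 36.8 °C and 37.8 °C, points being arrays and bars the means of 8 arrays. MRPL3 and MRPL51 show no overlap between the ages at 37.8 °C, while all other pairs shown overlap.

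Marker levels of several cell types differed between these ages. At 37.8 °C all 7 muscle genes rose, and their mean level was 11.48 to 11.88 in ED13 embryos and 10.33 to 10.83 in ED10 embryos. All 6 cartilage genes fell, with a median difference of -3.15 and mean levels of 5.55 to 6.46 in ED13 embryos and 8.38 to 10.01 in ED10 embryos. Of 6 cell cycle genes 5 fell (levels 10.45 to 10.75 in ED13 embryos and 10.56 to 11.05 in ED10 embryos), and of 5 red blood cell genes 3 fell (9.47 to 10.04 in ED13 embryos and 10.10 to 10.95 in ED10 embryos). Both adipocyte genes rose, 1 of 3 endothelial and 1 of 3 immune genes rose, and 0 of 4 skin genes passed. Their part in the fall of the family was not tested.

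Other genes of mitochondrial translation did not all move with the family between ED10 and ED13 at 37.8 °C. DAP3, PTCD3 and AURKAIP1, ribosome proteins with other names, had differences of -0.12, -0.10 and -0.10, none past the test. Of 14 genes for ribosome assembly and RNA modification 2 fell: MALSU1, which guards the large subunit from early joining (-0.38, SE 0.07, adjusted p = 8.21e-05), and the GTPase MTG2 (-0.39, SE 0.09). Of 8 genes listed as translation factors 1 rose, the initiation factor MTIF3 (0.30, SE 0.12, adjusted p = 0.0489). That list also counts LETM1, which is not itself a translation factor. Of 15 mitochondrial tRNA-charging genes 2 rose and 2 fell, among them FARS2 (0.26) and RARS2 (-0.23). Of 8 genes for mitochondrial DNA upkeep and transcription 4 fell, among them SSBP1, the single-strand DNA-binding protein (-0.28, SE 0.06, adjusted p = 0.000133), and the RNA polymerase POLRMT (-0.18).

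Regulators of nuclear genes for mitochondria moved in both directions, with 2 of 6 higher and 3 lower. PPARGC1A, a coactivator of mitochondrial growth, rose by 1.23 (SE 0.15, adjusted p = 6.90e-09), whereas its relative PPRC1 fell by 0.43 (SE 0.08) and MYC, a transcription factor that promotes growth and acts on ribosome genes, fell by 0.65 (SE 0.08, adjusted p = 2.93e-09). Among 53 respiratory chain and ATP synthase genes 1 rose and 3 fell, with a median of -0.03. Among 53 cytosolic ribosomal proteins 0 rose and 4 fell, also with a median of -0.03. The family's median of -0.12 lay below both, which is a description.

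**Figure D3:**
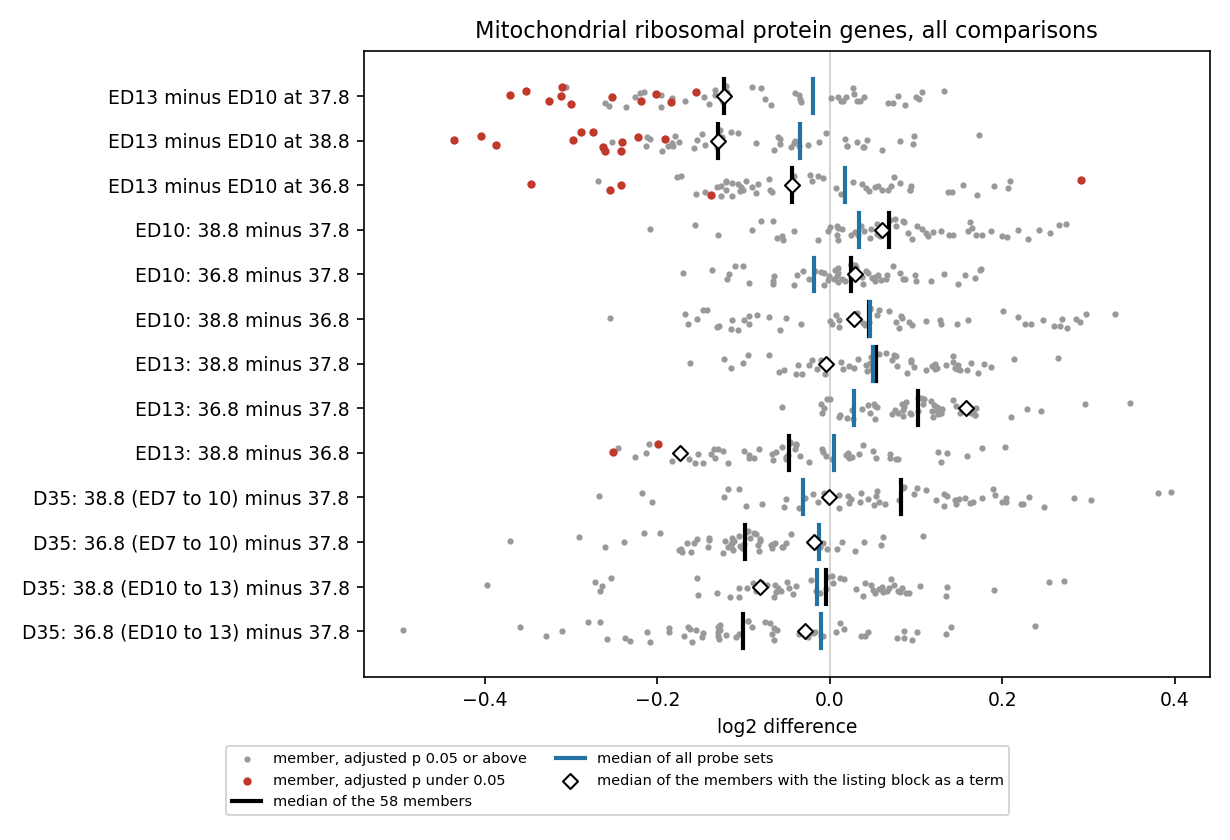
Log2 differences of the 58 members in each comparison, a point per member, red where called, with the medians of the members (black bar), of all probe sets (blue bar) and of the members with the listing block as a term (diamond). The ED13 minus ED10 differences lie mostly under 0, those of 36.8 °C minus 37.8 °C on ED13 mostly above 0, and no D35 point is called.

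On ED10, at the end of the early interval, no member passed the test for temperature. In limma, 0 members and 0% of probe sets were called for 38.8 °C and for 36.8 °C against 37.8 °C, and 0 members against 0.0338% of probe sets for 38.8 °C against 36.8 °C (0.00966% higher, 0.0241% lower). At an unadjusted p under 0.05 there were 1, 0 and 5 members in these 3 comparisons, or 1.72%, 0% and 8.62%. Over all probe sets the shares were 6.29%, 2.36% and 24.4% in the same order. Members lay higher at 38.8 °C than at 37.8 °C in 46 of 58 cases, with a median of 0.07 against 0.03 over all probe sets, and under quantile normalization the median over members was -0.02. The smallest p there was that of MRPL53, which averaged 8.33 at 38.8 °C and 8.09 at 37.8 °C, a difference of 0.24 (SE 0.11, adjusted p = 0.628). For 36.8 °C minus 37.8 °C, 38 of 58 differences were positive with a median of 0.02, or -0.02 with block and quantile normalization, and the smallest p was that of MRPL16 at 0.17 (SE 0.11).

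On ED13, after the late interval, cool incubation gave the most one-sided pattern of the family among the embryonic temperature comparisons, although no single member passed. For 36.8 °C minus 37.8 °C, 53 of 58 differences were positive with a median of 0.10, against 57.7% positive and a median of 0.03 over all probe sets. limma called 0 members and 0.00483% of probe sets, and 13 members (22.4%) had an unadjusted p under 0.05, all higher at 36.8 °C, against 14.2% of all probe sets. The median over members was 0.16 within blocks, with 54 of 58 positive. It was 0.07 after quantile normalization, with 48 positive, and 0.05 with both, with 40 positive. Among ED13 controls the second block lay lower by like amounts over members and over all probe sets, with medians of -0.13 and -0.12. With the block as a term, part of this control difference enters the value of every probe set. The median over all probe sets within blocks is not given here, so 0.16 has no such value beside it. Whether the rise within blocks is particular to the family was not tested.

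MRPL3 had a lowest, median and highest signal of 12.03, 12.13 and 12.33 in 36.8 °C embryos and 11.88, 11.93 and 11.97 in 37.8 °C embryos. All 8 cool embryos lay above all 8 controls, as for 0.145% of all probe sets, and the difference of 0.23 (SE 0.04) had an adjusted p of 0.0611. MRPS33, a small-subunit protein that bacteria lack, had 8.97, 9.27 and 9.45 in 36.8 °C embryos and 8.57, 9.01 and 9.13 in 37.8 °C embryos, with overlap, and a difference of 0.35 (SE 0.09, adjusted p = 0.0932). MRPL45 had 9.01, 9.26 and 9.36 in 36.8 °C embryos and 8.66, 8.89 and 9.32 in controls, a difference of 0.30 (SE 0.08, adjusted p = 0.129).

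Within listing blocks, that is against the 4 controls listed with the 36.8 °C arrays, 5 members were called higher, against 3.85% of all probe sets called higher and 0.372% lower. These were MRPL3 (0.22, adjusted p = 0.0334), MRPS33 (0.41), MRPL23 (0.26), MRPL33 (0.24) and MRPS5 (0.19). MRPL3 alone was called after dim probe sets were left out (adjusted p = 0.0388), with a trended prior (0.0187) and with 1 probe set per gene (0.0397). Without array 39 of the controls, or without array 83 of the cool embryos, 2 members were called.

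On ED13, 46 of 53 respiratory chain and ATP synthase genes and 48 of 53 cytosolic ribosomal proteins lay higher at 36.8 °C than at 37.8 °C, with medians of 0.09 and 0.06 and none called. Of the 8 genes listed as translation factors 3 were positive. The signal of the hybridisation control bioB was 7.27 to 9.67 on the 36.8 °C arrays, all of the second block, 9.18 to 9.48 on the 37.8 °C arrays of the second block and 6.92 to 7.52 on those of the first, so among the cool embryos it did not follow the block. With bioB and the block in the fit the median over members was 0.17 with 0 called. The part of the block and of these marker values in the pattern was not tested further.

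For 38.8 °C minus 37.8 °C on ED13, 41 of 58 differences were positive with a median of 0.05, the same as over all probe sets at 0.05. limma called 0 members and 0.00483% of probe sets. An unadjusted p under 0.05 was found for 8 members (13.8%), against 12.3% of all probe sets. The median over members was -0.005 within blocks and -0.006 after quantile normalization. MRPS31, a small-subunit protein that bacteria lack, averaged 8.50 at 38.8 °C and 8.29 at 37.8 °C, a difference of 0.21 (SE 0.08, adjusted p = 0.336). MRPL33 differed by 0.15 and MRPS34 by -0.12, both short of the test.

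The warm and the cool embryos of ED13 differed at 2 members in the fit without blocks. For 38.8 °C minus 36.8 °C, 2 of 58 members fell and 0 rose, or 3.45%, against 2.34% of probe sets lower and 5.88% called in either direction. Those calls were 3.54% higher and 2.34% lower as deposited, and 5.4% higher and 5.5% lower after quantile normalization. MRPS34 had a lowest, median and highest signal of 11.14, 11.24 and 11.38 in 38.8 °C embryos and 11.39, 11.49 and 11.61 in 36.8 °C embryos, a difference of -0.25 (SE 0.05, adjusted p = 0.00917). MRPL3 had 11.84, 11.97 and 12.02 in 38.8 °C embryos and 12.03, 12.13 and 12.33 in 36.8 °C embryos, a difference of -0.20 (SE 0.04, adjusted p = 0.0116). Every warm embryo lay below every cool one for both genes, as for 0.401% of all probe sets.

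These warm and cool arrays lie in different listing blocks, which only the controls join. With the block as a term, MRPS34 differed by -0.31 (SE 0.09, adjusted p = 0.11) and MRPL3 by -0.19 (SE 0.08, adjusted p = 0.216), so both kept their direction and neither was called. With the block the whole comparison called 0.135% of probe sets, 0.00483% higher and 0.13% lower. The median over members was -0.174, against -0.048 without it, where all probe sets had a median of 0.004. In the ED13 controls that set the block term, second minus first block had medians of -0.13 over members and -0.12 over all probe sets. The controls thus differed between blocks about as much over all probe sets as over members. After quantile normalization 7 members were called, all lower at 38.8 °C, with MRPS34 at -0.25 (adjusted p = 0.00112) and MRPL3 at -0.19 (adjusted p = 0.00326). Without control array 91 the count was 5, and without control array 39 it was 4.

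Relative to the cool embryos, the gene lists set beside the family did not all lie on one side. The differences and calls of these lists are from the fit without blocks. With the block as a term, 0.00483% of all probe sets were called higher at 38.8 °C and 0.13% lower. All 8 genes listed as translation factors, LETM1 (0.32) included, were higher at 38.8 °C than at 36.8 °C, with a median of 0.19. MTRF1L, a release factor of mitochondria, was called (0.36, SE 0.10, adjusted p = 0.038). Of 53 respiratory chain and ATP synthase genes 5 fell and 0 rose, with 45 lower, and of 53 cytosolic ribosomal proteins 3 fell and 0 rose, with 44 lower. The cartilage genes were on average higher in warm embryos, at a mean level of 5.65 to 8.91, against 5.57 to 6.21 in cool embryos, and 1 of 6 was called. Whether that bears on the family was not tested.

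**Figure D4:**
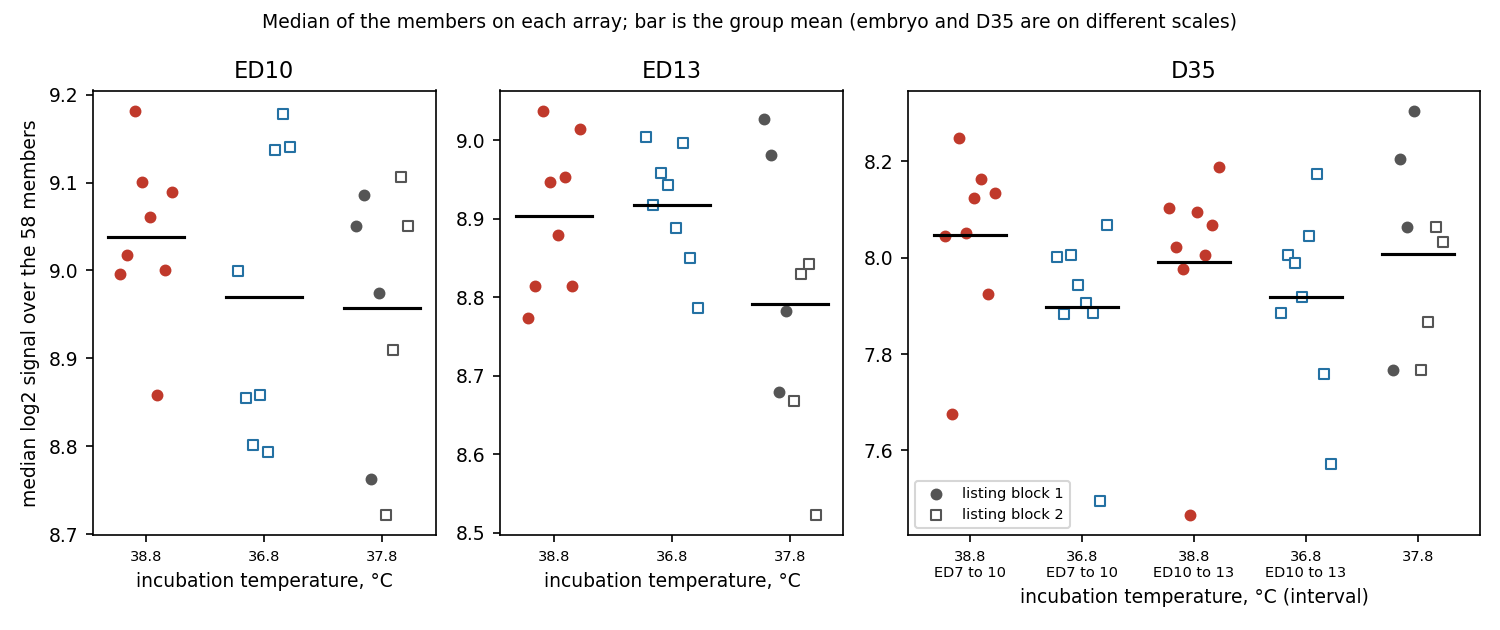
Median log2 signal over the 58 members on each array, with 38.8 °C and 36.8 °C left of 37.8 °C within an age, points being arrays, bars group means, and circles and squares the first and second listing block. On ED13 the 36.8 °C arrays lie between 8.79 and 9.004 and the 37.8 °C arrays between 8.52 and 9.03, and at D35 all groups overlap.

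At slaughter age no member passed the test for any embryonic treatment. In limma, 0 members and 0% of probe sets were called in each of the 4 comparisons with 37.8 °C. At an unadjusted p under 0.05 there were 6 members (10.3%) for the early warm group and 2 (3.45%) for the early cool group. There were 1 (1.72%) for the late warm group and 3 (5.17%) for the late cool group. Over all probe sets the share was 6.40%, 3.09%, 3.14% and 6.37% in the same order.

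In the early warm group 43 of 58 differences were positive, with a median of 0.08 against -0.03 over all probe sets. MRPS16, a small-subunit protein with a bacterial counterpart, had a lowest, median and highest signal of 8.55, 8.70 and 9.04 in early 38.8 °C birds and 8.09, 8.36 and 8.65 in controls, a difference of 0.40 (SE 0.14, adjusted p = 0.622). MRPS7 (0.20) and MRPL58 (0.20), which frees stalled chains from the ribosome, came next, at adjusted p of 0.69 and 0.694. Within blocks the median over members was -0.001 with 28 positive, and with block and quantile normalization it was -0.02 with 23 positive.

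In the early cool group 7 of 58 differences were positive, with a median of -0.10 against -0.01. MRPL51 had 7.85, 8.07 and 8.42 in early 36.8 °C birds and 8.18, 8.31 and 8.58 in controls, a difference of -0.24 (SE 0.11) with an adjusted p of 0.9998. MRPL53 differed by -0.37 (SE 0.17) and MRPL41 by -0.29. Within blocks the median was -0.02 with 22 positive, and with block and quantile normalization it was 0.04 with 37 positive.

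The late groups showed the same lack of calls. Of the late warm differences 28 of 58 were positive, with a median of -0.004, and -0.08 within blocks and 0.02 after quantile normalization, led by MRPS14 at -0.27 (SE 0.12). Of the late cool differences 14 were positive, with a median of -0.10, and -0.03 within blocks and 0.02 with block and quantile normalization. MRPL51 was again first by its p, with 7.58, 7.99 and 8.31 in late 36.8 °C birds and 8.18, 8.31 and 8.58 in controls, a difference of -0.31 (SE 0.11, adjusted p = 0.672). MRPL39 differed by -0.36 and MRPL35 by -0.50 in that group, while the second probe set of MRPL35 differed by -0.12 (SE 0.24). Both cool groups were set against the same 8 controls, so they are not independent. MRPL3 had medians of 10.64 in early warm, 10.22 in early cool, 10.54 in late warm, 10.30 in late cool and 10.47 in control birds, with overlapping ranges.

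Without the block term, respiratory chain and ATP synthase genes leaned the same way as the family in the early warm, early cool and late cool groups at D35. In the late warm group neither leaned to one side. In the early warm, early cool, late warm and late cool groups 39, 6, 26 and 9 of 53 were positive. Their medians were 0.08, -0.10, -0.003 and -0.13. In the groups that leaned, the lean of the family shrank within blocks, and within-block values of the other lists are not given here. For cytosolic ribosomal proteins 37, 35, 34 and 51 of 53 were positive. The SD of the array medians over members within a group was 0.176 to 0.222 in the D35 groups. It was 0.0744 to 0.167 in the ED13 groups, highest in the controls, and 0.0955 to 0.163 in the ED10 groups.

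In 5 members, those on chromosome Z, arrays of one group differed by the presence of chromosome W transcripts. In birds, females carry a Z and a W chromosome and males a pair of Z, and dosage of Z genes is only partly evened out. The labels give no sex, so arrays were parted by 15 probe sets of W genes, whose mean level left a gap of 3.77 log2 units in embryos and 3.19 at D35. W transcripts were present on 23 of 48 embryo arrays and 20 of 40 D35 arrays, with 3 or 4 of the 8 arrays in every group. Of the 57 members with a known chromosome, 10 lie on chromosome 1, 8 on chromosome 3, 5 on chromosome 2 and 5 on Z.

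All 5 Z members were lower on arrays with W transcripts in both sets, against 2.41% of probe sets called lower in embryos and 2.46% at D35. Of the 524 probe sets on Z, 54.01% were called lower in embryos and 47.1% at D35, with medians of -0.31 and -0.37, so the family's Z members share a difference that is common on Z. MRPS30, counted today among large-subunit proteins, had a lowest, median and highest signal of 8.02, 8.64 and 9.27 on embryo arrays with W and 9.10, 9.53 and 9.82 on arrays without, a difference of -0.84 (SE 0.07, adjusted p = 1.88e-13). MRPS27, a small-subunit protein that bacteria lack, had 8.61, 8.85 and 9.35 with W and 9.03, 9.53 and 9.69 without, a difference of -0.62 (SE 0.04, adjusted p = 1.96e-15). These ranges overlapped in part, and on ED13 alone MRPS30, MRPS27 and MRPL50 did not overlap. The share of probe sets on Z, or of all probe sets, without overlap is not given here for ED13 or D35. Absence of overlap is therefore not read as particular to these members.

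The others followed with smaller or like differences in embryos: MRPL50 by -0.66 (SE 0.06), MRPS36 by -0.57 (SE 0.08) and MRPL17 by -0.33 (SE 0.04). MRPS36 is now known as a subunit of the 2-oxoglutarate dehydrogenase complex. At D35 the differences were -1.04 (SE 0.10) for MRPS30, -0.81 for MRPS27, -0.78 for MRPL50, -0.68 for MRPS36 and -0.52 for MRPL17. MRPL50 had 9.15, 9.62 and 10.03 on D35 arrays with W and 10.04, 10.45 and 10.72 on those without, and did not overlap. As a ratio, the level without W over that with W was 1.79 for MRPS30 in embryos and 2.06 at D35, and 1.26 for MRPL17 in embryos and 1.44 at D35.

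With the term for W in the fit, the residual SD of MRPS27 was 0.146, against 0.358 without the term. On ED10 alone 4 of the 5 Z members were called lower, against 1.2% of probe sets and 29.2% of those on Z, and MRPS36 had a difference of -0.49 at an adjusted p of 0.0858. On ED13 alone all 5 were called lower, against 2.21% of probe sets and 51.3% of those on Z. Among the other 53 members, 1 of them with no known chromosome, 0 were called in embryos, against 0.531% of probe sets called higher, with a median of 0.05. At D35, 1 was called higher, against 0.372% of probe sets: MRPL3, on chromosome 2, at 0.24 (SE 0.07, adjusted p = 0.0432). The same 5 Z members were called lower after quantile normalization and with the listing block in the fit.

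**Figure D5:**
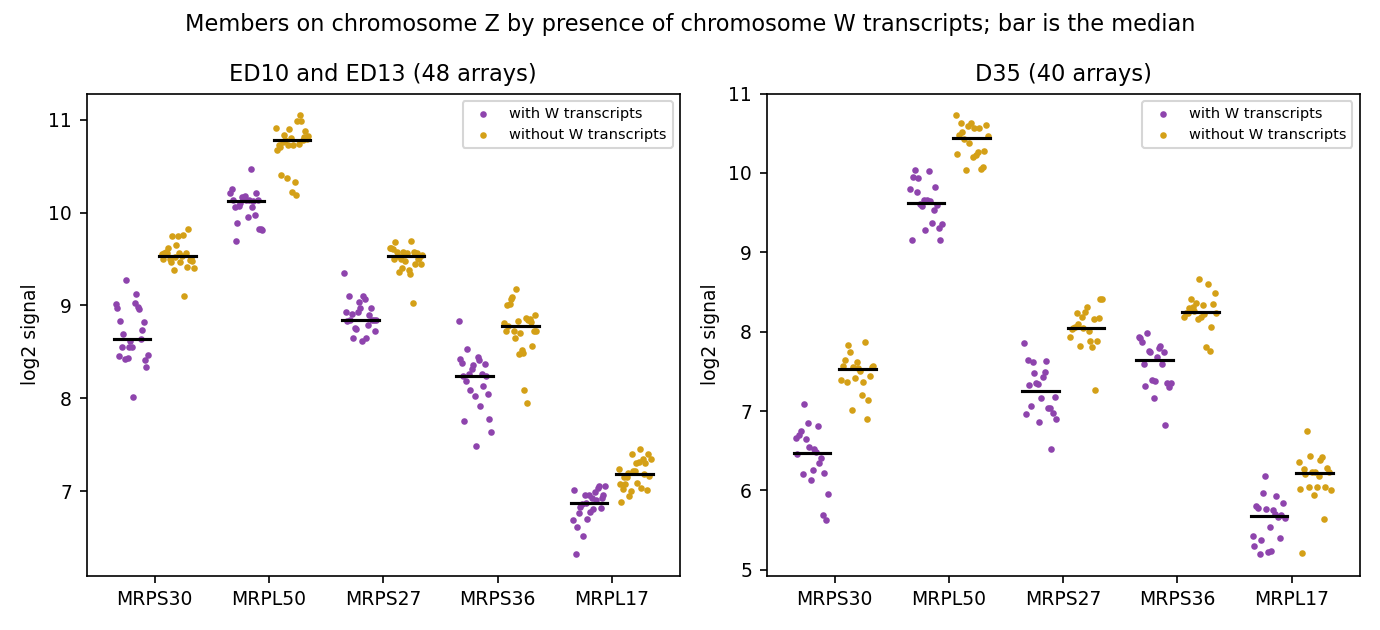
Log2 signal of the 5 members on chromosome Z on each array, with arrays that hold chromosome W transcripts left of arrays without them, for the embryo set and for D35. The arrays with W lie lower on average for every gene, from MRPS30 with the largest mean difference to MRPL17 with the smallest. The ranges overlap, except for MRPL50 at D35.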

How the data were processed

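The authors deposited 1 log2 value per probe set and array, read as log2 signal from its range, in 2 tables that differed in 0 values. Per the labels' protocols, total RNA of single samples was made into biotinylated cRNA. The submitters' processing notes name GCOS 1.1.1, while no source used here states how probes were summarised or normalized. Of 20804 rows, 98 control probe sets were left out and 20706 tested. GEO's platform table gave symbols, brought up to date by Entrez number from the RefSeq table of GRCg7b, which gave chromosomes.

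Groups were compared in R 4.3.3 by lmFit, contrasts.fit and eBayes of limma 3.58.1 (checked on simulated data), 2-sided, with Benjamini-Hochberg adjustment over all 20706 probe sets and a threshold of 0.05. Age comparisons and interactions used 48 embryo arrays, temperature comparisons the 24 arrays of an embryonic age or the 40 of D35. The number of arrays limits precision. No arrays were identical.

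Members and lists were chosen with earlier results of these data known. Named members are, per comparison, the 8 called members that rose most and the 8 that fell most, or the 3 smallest p where fewer than 3 were called; further the 3 highest and lowest by mean, those on Z, those with conflicting probe sets, and MRPL3, MRPL12, MRPS12, MRPS18A, MRPS30 and MRPS36. Lists give up to 3 genes with the smallest p; members outside this rule were named after their values were seen. Alternatives were quantile normalization, the listing block, both, block and bioB, no dim probe sets (lowest 25%), a trended robust prior, only the groups compared, 1 probe set per gene, a W term, and leaving out each array. Promoter motifs were not analysed.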

Additional observations from a re-analysis of the deposited data

Results flagged for a closer look

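In groups of 8 arrays, 68 values were examined for an array that lies far from the nearest of the others relative to the group's range; chance marks about 1 in 20 such groups, and 5 were marked. In early 36.8 °C birds at D35 the median over members was 7.49 on array 64, against 7.88 to 8.07 on the others. In late 38.8 °C birds it was 7.47 on array 43, against 7.98 to 8.19. MRPL24 stood at 9.89 on array 77 of ED13 at 36.8 °C, against 9.47 to 9.66. MRPL51 stood at 9.47 on array 26 of ED13 at 38.8 °C, against 9.84 to 9.97. MRPS25 stood at 9.94 on array 9 of ED10 at 38.8 °C, against 9.56 to 9.67. Without any of these arrays no comparison that involves them changed its count of called members by over 1.5 times.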

How the results depend on the processing

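No paired analysis was possible because the groups compared share no replicate numbers. Under 9 other settings no called member changed sign. Leaving out dim probe sets, the trended prior, only the groups compared and 1 probe set per gene leave a difference as it is. Its sign therefore could not change there, nor with the block alone in comparisons of age. Under all 9 settings, 6 of the 11 members that fell at 37.8 °C and 7 of 12 at 38.8 °C were called. The same held for 2 of 5 called at 36.8 °C (MRPL24 and MRPL51). For ED13 minus ED10 at 37.8 °C, block with bioB left 7 calls. At 36.8 °C quantile normalization gave 13, against 30.6% of all probe sets, and block with quantile normalization also gave 13. Block with bioB gave 3 there and only the groups compared 2. For ED13 36.8 °C minus 37.8 °C the listing block gave 5 calls, and leaving out dim probe sets, the trended prior and 1 probe set per gene gave 1 each. For ED13 38.8 °C minus 36.8 °C quantile normalization gave 7, only the groups compared 4, and the block, block with quantile normalization and block with bioB gave 0 each, while the median over members was -0.174 with the block and -0.171 with block and bioB, against -0.048 as reported. All 38.8 °C arrays lie in the first block and all 36.8 °C arrays in the second. The block term therefore adds the block difference of the ED13 controls to each probe set. Its median, second minus first block, was -0.13 over members and -0.12 over all probe sets. Leaving out 1 array gave 8 to 17 calls at 37.8 °C, 7 to 15 at 38.8 °C and 2 to 7 at 36.8 °C (2 without array 57, 76 or 83, 3 without array 55, 73 or 74) for ED13 minus ED10, 0 to 2 for ED13 36.8 °C minus 37.8 °C, and 2 to 5 for ED13 38.8 °C minus 36.8 °C. Other counts and medians kept within 1.5 times or the spread between arrays in 285 comparisons of settings and 980 with 1 array left out. On ED10 and at D35 that spread was larger than every median over members. A change of sign could thus count as kept, as for both cool D35 groups with block and quantile normalization. Among results not counted as main ones, 36 were weaker under another setting and 234 were the same. For ED10 38.8 °C minus 36.8 °C the median over all probe sets was 0.05 as reported, -0.07 under quantile normalization and -0.05 with the block. On ED13, 3.54% of probe sets were called higher and 2.34% lower in this comparison as reported. With the block these shares were 0.00483% and 0.13%. The block, unstated in meaning, and unknown normalization limit the temperature comparisons.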
